A study of Mus musculus with 24 samples.

Results

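The 10 genes described here are paternally expressed imprinted genes: Peg3, Usp29, Mest, Peg10, Sgce, Snrpn, Ndn, Plagl1, Zrsr1 and Impact. They were taken as a fixed list of symbols and found in the deposited counts table through their Entrez gene IDs, not through their measured levels. All 10 were among the 24594 genes of the table, and all 10 passed the filter on low counts that left 15682 genes to test. RNA, labelled as mRNA, was measured by RNA-seq of 24 libraries of mouse embryonic stem cells (mESCs) in 5 batches, A to E. The 11 wild-type (WT) libraries are 2 each in batches A, B, C and E and 3 in batch D. The other 13 come from 6 lines made with CRISPR–Cas9 to remove 1 noncatalytic subunit each of the ISWI chromatin remodelling complexes. Rsf1Δ and WstfΔ (the gene Baz1b) have 2 libraries each in batch A and share the WT libraries of that batch, Tip5Δ (Baz2a) has 2 in batch B, BptfΔ 2 in batch C and Acf1Δ (Baz1a) 2 in batch E, and 3 libraries labelled Cecr2Δ are in batch D. All cells, WT included, have the 129S6/SvEvTac background and received no treatment. They were grown on gelatin with serum and leukemia inhibitory factor. Each line is 1 selected clone, so a change in a line and a property of its clone cannot be told apart, and Acf1Δ went through targeting a second time to remove another isoform. The p-values measure the spread between libraries of 1 line or of the WT cells.

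Genomic imprinting silences 1 parental copy of a gene through DNA methylation laid down in the germ line. In the mouse embryo the 10 genes are read from the paternal copy, while the maternal copy is methylated at a nearby imprinting control region. That methylation is kept through early development by the zinc finger protein ZFP57, which binds methylated DNA and recruits TRIM28 (KAP1), together with the maintenance methyltransferase DNMT1. Imprints are known to be unstable in cultured mESCs, and many of these genes take part in growth of the embryo and placenta. The background here is inbred and the files hold counts per gene, so the values below are sums over both parental copies and do not show from which copy a transcript came.

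In the mouse assembly mm10 (GRCm38) the 10 genes lie in 7 regions. Peg3 (chr7:6703892-6730462, minus strand) and Usp29 (chr7:6730559-6967220, plus strand) start 97 bases apart and run in opposite directions. Sgce (chr6:4674350-4747204, minus strand) and Peg10 (chr6:4747306-4760517, plus strand) form a like pair, with starts 102 bases apart. Snrpn (chr7:59982495-60450177, minus strand) and Ndn (chr7:62348277-62349928, plus strand) belong to the same imprinted domain, but their annotated starts are 1898100 bases apart. Mest (chr6:30733506-30748466), Plagl1 (chr10:13090832-13131694), Zrsr1 (chr11:22972005-22976496) and Impact are all on the plus strand. Some of these spans hold other genes. Snrpn shares its strand with Snurf and Snhg14 and is overlapped on the other strand by Gm7367 over 1401 bases, Usp29 is overlapped on the other strand by Zim3 over 11536 bases and Mest by Copg2 over 913 bases, and Zrsr1 lies whole, over 4492 bases, in the opposite strand of Commd1. How reads in such overlaps or on either strand were counted is not given in the sources used here, so the values of these 4 genes may include reads of their neighbours.

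RefSeq promoter windows of 300 bases, from 250 before to 50 after an annotated start, were matched for 7 of the 10 genes, in 12 windows. They were searched on both strands for TGCCGC, the core letters of the ZFP57 motif, and for AANATGGC, core letters of the motif of YY1, a zinc finger factor with known sites in the Peg3 control region. Neither set of letters overlaps the other. TGCCGC occurred in 11.6% of the 32851 windows of all genes and in 4 of the 12 windows, which belong to Mest, Snrpn and Plagl1. Of these 4, 2 are Mest windows shifted by 3 bases that hold the same matches, so the count covers 3 separate sequences. AANATGGC occurred in 6.05% of all windows and in 0 of the 12. A match is a description of the letters and not evidence of binding, and its absence says only that the letters are not in the window. The 4 windows below are shown because that of Usp29 overlaps the Peg3 window (chr7:6730370-6730669, minus strand, not shown) and because the other 3 hold TGCCGC. Capitals mark that match, which stands as GCGGCA where it is on the other strand, and all windows are from RefSeq on GRCm38.p6, written on the strand of the gene.
Usp29, chr7:6730333-6730632, plus strand: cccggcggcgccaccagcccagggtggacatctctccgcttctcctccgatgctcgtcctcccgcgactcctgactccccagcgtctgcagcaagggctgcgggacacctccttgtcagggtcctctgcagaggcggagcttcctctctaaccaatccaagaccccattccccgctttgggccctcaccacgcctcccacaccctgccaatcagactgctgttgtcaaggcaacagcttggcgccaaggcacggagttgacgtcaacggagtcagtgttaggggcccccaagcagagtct
Mest, chr6:30737800-30738099, plus strand: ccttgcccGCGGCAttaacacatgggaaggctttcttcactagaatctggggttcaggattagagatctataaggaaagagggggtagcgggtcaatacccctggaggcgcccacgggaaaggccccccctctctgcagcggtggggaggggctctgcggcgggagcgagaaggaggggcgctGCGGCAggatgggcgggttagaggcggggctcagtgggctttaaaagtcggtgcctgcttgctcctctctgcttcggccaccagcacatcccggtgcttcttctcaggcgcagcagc
Snrpn, chr7:60005150-60005449, minus strand: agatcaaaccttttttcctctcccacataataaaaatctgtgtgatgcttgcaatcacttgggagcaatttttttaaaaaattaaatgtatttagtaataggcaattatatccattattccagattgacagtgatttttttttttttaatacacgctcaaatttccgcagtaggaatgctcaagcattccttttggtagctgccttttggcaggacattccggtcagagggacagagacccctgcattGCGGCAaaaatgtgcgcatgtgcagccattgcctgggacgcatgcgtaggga
Plagl1, chr10:13090582-13090881, plus strand: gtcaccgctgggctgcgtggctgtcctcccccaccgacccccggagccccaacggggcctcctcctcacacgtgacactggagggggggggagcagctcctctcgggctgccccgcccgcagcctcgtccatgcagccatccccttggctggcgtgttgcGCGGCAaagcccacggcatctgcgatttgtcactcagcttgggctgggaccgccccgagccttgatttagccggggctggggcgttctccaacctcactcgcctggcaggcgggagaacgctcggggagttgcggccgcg

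The windows of Usp29 and Plagl1 were rich in CpG dinucleotides, the sites of DNA methylation, with 17 and 26 against a median of 7 over all windows. The Mest window held 17, and the Snrpn window held 7.

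Library totals were 13.4 to 36.7 M (mega) counts with a median of 25.0 M. The 6 pluripotency markers Pou5f1, Sox2, Nanog, Klf4, Esrrb and Zfp42 were present in all libraries, with a summed level of 2527 to 4117 normalized CPM (counts per M counts of the library, scaled by TMM factors). Targeted genes fell in their lines for Rsf1 (log2 fold change -2.26), Baz1b (-2.40), Bptf (-1.97) and Baz1a (-1.72). Baz2a did not pass the test in Tip5Δ (-0.26, adjusted p = 0.0533 in edgeR), and Cecr2 was above WT in the 3 libraries labelled Cecr2Δ (0.37, adjusted p = 0.000154 in edgeR), which are named by their label throughout. These are RNA levels. By western blot the paper found the targeted protein undetectable in every deletion line, and its clones were also checked by DNA sequencing. Adjusted p-values come from the quasi-likelihood test of edgeR and were adjusted by the Benjamini-Hochberg method over the 15682 genes. A gene is said to have risen or fallen where its adjusted p was under 0.01, and is called a DEG where it was also past a 2-fold change. Batch C stood apart: its 4 libraries gave 2336 to 3174 CPM to 55 replication-dependent histone genes, whose RNAs lack a poly(A) tail, against 12.9 to 33.9 CPM in the other 20 libraries.

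In WT cells the 10 genes spanned a wide range of levels. Compared per kilobase of gene width, Peg10, a retrotransposon-derived gene needed in the placenta, was at 88.3 ± 33.6 normalized CPM per kb (SD, n = 11 libraries). Snrpn, which encodes a spliceosome protein, was at 85.5 ± 8.56, Mest, a hydrolase gene of mesoderm and placenta, at 36.6 ± 4.09, and Impact, an inhibitor of the eIF2α kinase GCN2, at 32.1 ± 9.58. Peg3, a zinc finger gene, followed at 7.56 ± 2.51, and Zrsr1, a splicing factor gene, at 4.44 ± 0.91. At the lower end were Ndn (necdin, a growth suppressor of neurons) at 2.24 ± 0.21, Sgce (epsilon-sarcoglycan, a membrane protein) at 1.63 ± 0.77, Plagl1 (Zac1, a zinc finger factor that restrains growth) at 1.57 ± 0.54 and Usp29, a ubiquitin protease gene, at 0.23 ± 0.044. In all 5 batches Snrpn was above Mest, Impact above Peg3, Zrsr1 above Ndn and Plagl1 above Usp29 on this scale. The other 5 neighbours in the order changed places in at least 1 batch. An exact two-sided sign-flip permutation test over the 5 batch means cannot go below p = 0.0625, which these 4 steps reached, and the other 5 gave 0.125 to 0.75. The order was taken from these same WT libraries, so neither the test nor the count of batches is independent support for it.

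WT cells of different batches were not alike in these genes. Of the 10 genes, 5 differed past 2-fold between the WT libraries of the 5 batches with an adjusted p under 0.01, where 24% of all genes (3764 of 15682) did. The log2 range between batches was 1.76 for Plagl1 (adjusted p = 1.43e-09 in edgeR), 1.68 for Peg10 (1.88e-12), 1.54 for Sgce (1.28e-08), 1.14 for Peg3 (2.39e-11) and 1.13 for Impact (1.5e-16). Usp29, Mest, Snrpn and Zrsr1 also differed, by 0.67, 0.34, 0.34 and 0.66, and Ndn varied by 0.30 with an edgeR adjusted p of 0.115. Batch C set part of these ranges: Peg10 and Plagl1 were lowest and Impact highest in its WT libraries. Without batch C, Peg3 (1.12) and Sgce (1.45) were past 2-fold, a count of 2, where 14.9% of all genes were. Each line was therefore set against the WT libraries of its own batch.

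**Figure D1:**
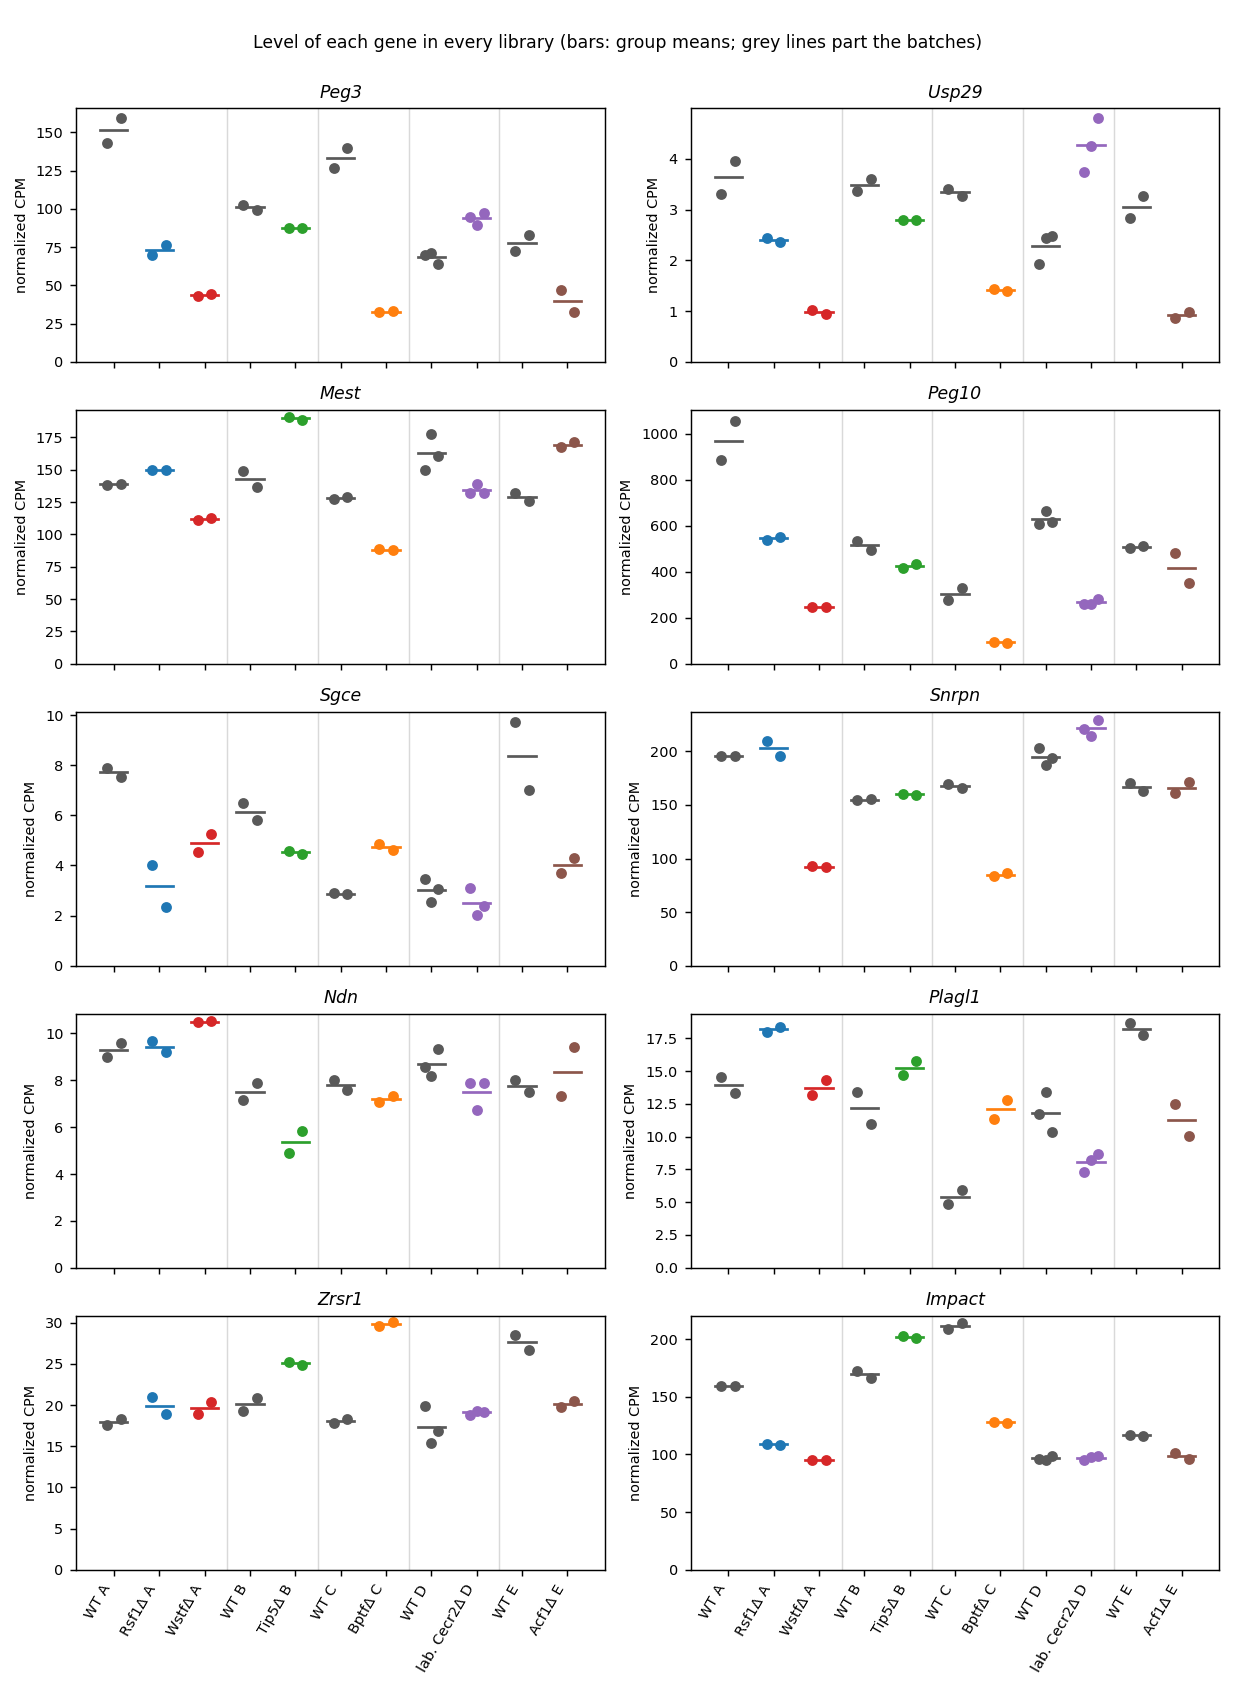
Level of each of the 10 genes in normalized CPM (y axis, from 0) in every library, by group and batch (x axis), with a point per library, a bar at the group mean, grey for WT and a colour per line. Peg3 lies at 32.3 to 44.0 in the libraries of WstfΔ and BptfΔ and at 64.2 to 159 in the 11 WT libraries.

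The comparison of each line with WT asks how loss of 1 subunit alters gene expression. Counted over the 10 genes, decreases outnumbered increases in WstfΔ, BptfΔ, Acf1Δ and Rsf1Δ, equalled them in the libraries labelled Cecr2Δ and were fewer in Tip5Δ. In WstfΔ, 6 fell and 0 rose, where 18.3% of all genes tested fell and 16.4% rose, and 4 of the 6 were DEGs, against 6.57% of all genes that were decreased DEGs and 3.87% that were increased ones. In BptfΔ, 6 fell and 2 rose (20.2% and 21.4% of all genes), with 3 decreased and 1 increased DEGs (8.59% and 5.25%). In Acf1Δ, 6 fell and 1 rose (16.7% and 15.1%), with 2 decreased and 0 increased DEGs (3.32% and 1.14%). In Rsf1Δ, 4 fell and 0 rose (13.1% and 7.45%), and 2 decreased and 0 increased DEGs were found (5.26% and 0.650%). In the libraries labelled Cecr2Δ, 3 fell and 3 rose (8.83% and 9.52%), with 1 decreased and 0 increased DEGs (2.33% and 0.784%). In Tip5Δ, 0 fell and 2 rose (6.23% and 2.84%), and no DEG was found in edgeR (2.63% of all genes decreased, 0.0829% increased). At an unadjusted edgeR p under 0.05, 4 were lower and 4 higher in Tip5Δ (15.6% and 12.6% of all genes), 7 lower and 0 higher in WstfΔ (27.8% and 24.6%), and 5 lower and 1 higher in Rsf1Δ (21.8% and 17.6%). DESeq2 gave the same counts of the 10 genes that rose, fell or were DEGs in all 6 lines.

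The members of a list can move in either direction, and the median change of the 10 genes stood beside that of all genes as follows. In WstfΔ the median log2 fold change was -0.70 over the 10 genes and -0.026 over all genes tested, and in BptfΔ it was -0.63 and 0.015. Acf1Δ gave -0.37 and -0.026, Rsf1Δ -0.26 and 0.0013, the libraries labelled Cecr2Δ -0.11 and -0.0022, and Tip5Δ -0.083 and -0.0050. The medians of the 10 genes were thus below those of all genes in each line, by the most in WstfΔ.

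**Figure D2:**
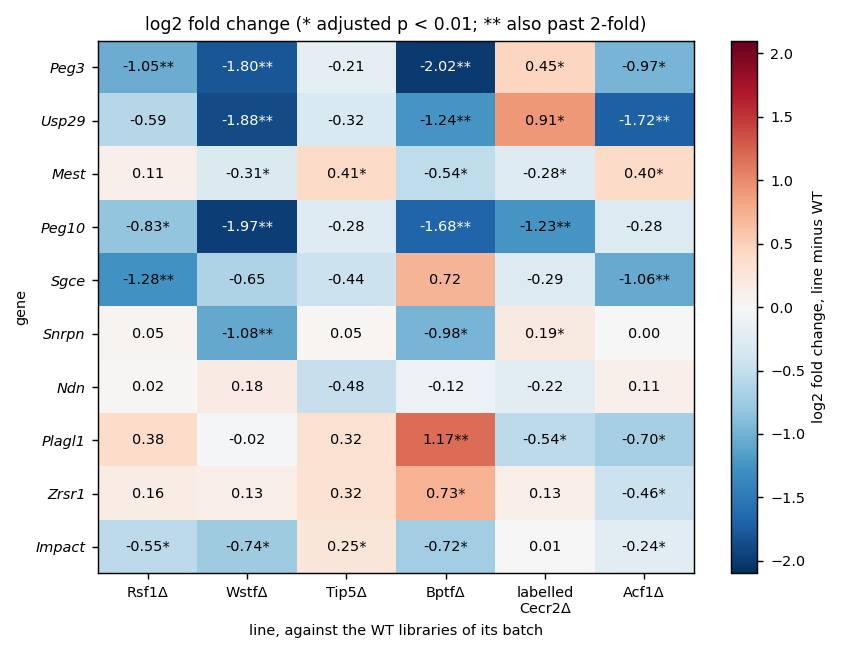
Log2 fold change of each gene (rows) in each line against the WT libraries of its batch (columns), in blue where lower and red where higher in the line. A star marks an adjusted p under 0.01 and a pair of stars a DEG. Ndn has no star in any column, and the darkest cell is Peg3 in BptfΔ at -2.02.

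Peg3 and Usp29, which share a promoter region, were both lower in WstfΔ, BptfΔ and Acf1Δ and both higher in the libraries labelled Cecr2Δ. Peg3 was at 32.3 and 33.5 normalized CPM in the BptfΔ libraries and at 127 and 139 in WT of that batch, a log2 fold change of -2.02 ± 0.11 (SE, adjusted p = 1.67e-14 in edgeR). In WstfΔ it was at 42.8 and 44.0 against 143 and 159, a log2 fold change of -1.80 ± 0.11 (SE, adjusted p = 2.11e-13 in edgeR). In both lines each library lay below all 11 WT libraries of the 5 batches. In Rsf1Δ, set against the same WT libraries as WstfΔ, Peg3 was at 70.0 and 76.6, a log2 fold change of -1.05 ± 0.10 (SE, adjusted p = 4.04e-09 in edgeR). Its call as a DEG there rests on single libraries: without Rsf1Δ replicate 1 the log2 fold change was -0.98, and without WT replicate 2 it was -0.97. Without the batch term, in a model that sets each line against WT libraries of all batches, it did not pass (-0.49, adjusted p = 0.375 in edgeR). Acf1Δ held 46.7 and 32.6 against 72.2 and 82.9, a log2 fold change of -0.97 ± 0.10 (SE, adjusted p = 4.17e-08 in edgeR). Peg3 therefore fell in Acf1Δ without reaching 2-fold, and without Acf1Δ replicate 1 (-1.25) or WT replicate 1 (-1.07) it passed 2-fold. Against these, the libraries labelled Cecr2Δ were at 94.4, 89.7 and 97.6 and their WT at 69.9, 71.4 and 64.2, a log2 fold change of 0.45 ± 0.080 (SE, adjusted p = 9.21e-05 in edgeR). Those 3 libraries were above each WT library of their batch but within the range of the WT libraries of other batches, and without the batch term the change was -0.13. Tip5Δ, at 87.7 and 87.2 against 103 and 99.6, gave -0.21 (adjusted p = 0.161 in edgeR), and passed with its own WT libraries only (-0.21, adjusted p = 0.000786).

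Usp29, the least abundant of the 10, had 13 to 172 counts per library. Its levels were 1.01 and 0.951 normalized CPM in WstfΔ against 3.31 and 3.96 in WT, a log2 fold change of -1.88 ± 0.25 (SE, adjusted p = 5.1e-07 in edgeR). Acf1Δ was close by, at 0.858 and 0.988 against 2.84 and 3.26, a log2 fold change of -1.72 ± 0.21 (SE, adjusted p = 3.94e-07 in edgeR). BptfΔ was at 1.44 and 1.39 against 3.41 and 3.27, a log2 fold change of -1.24 ± 0.23 (SE, adjusted p = 4.23e-05 in edgeR). In these 3 lines every library was below all 11 WT libraries. The opposite held in the libraries labelled Cecr2Δ, at 3.73, 4.26 and 4.80 against 1.94, 2.44 and 2.48, a log2 fold change of 0.91 ± 0.13 (SE, adjusted p = 7.41e-06 in edgeR), which was 0.47 (adjusted p = 0.0482) without the batch term. Usp29 gave -0.59 (adjusted p = 0.0134 in edgeR) in Rsf1Δ and -0.32 (adjusted p = 0.243 in edgeR) in Tip5Δ, so neither passed the test. No library of either line overlapped its WT libraries, but this held for most of the 10 genes, called or not. It held for 10 in Tip5Δ, where 8 had no call, and for 9 in Rsf1Δ, where 6 had no call. The share over all genes was not counted.

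The change of each line was also tested against the mean change of the other 5 lines. Rsf1Δ and WstfΔ share WT libraries, which the model takes into account. For Peg3 the difference was past 2-fold with an adjusted p under 0.01 in BptfΔ (-1.30, adjusted p = 8.98e-10 in edgeR), WstfΔ (-1.04, adjusted p = 1.87e-08 in edgeR) and the libraries labelled Cecr2Δ (1.66, adjusted p = 3.26e-13 in edgeR). For Usp29 it was so in WstfΔ (-1.29, adjusted p = 0.000231 in edgeR), Acf1Δ (-1.09, adjusted p = 0.000473 in edgeR) and the libraries labelled Cecr2Δ (2.06, adjusted p = 3.35e-10 in edgeR). Over the 10 genes such differences were found for 3 in WstfΔ (5.87% of all genes), 3 in BptfΔ (11.2%), 2 in the libraries labelled Cecr2Δ (4.21%), 1 in Acf1Δ (6.45%), and 0 in Rsf1Δ (2.44%) and Tip5Δ (3.06%), where no difference of the 10 genes was past 2-fold at any p. Leaving out single libraries moved the count in Acf1Δ to 0 (without WT replicate 2) and to 2 (without Acf1Δ replicate 2), and that in Rsf1Δ to 1 (without Rsf1Δ replicate 1).

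**Figure D3:**
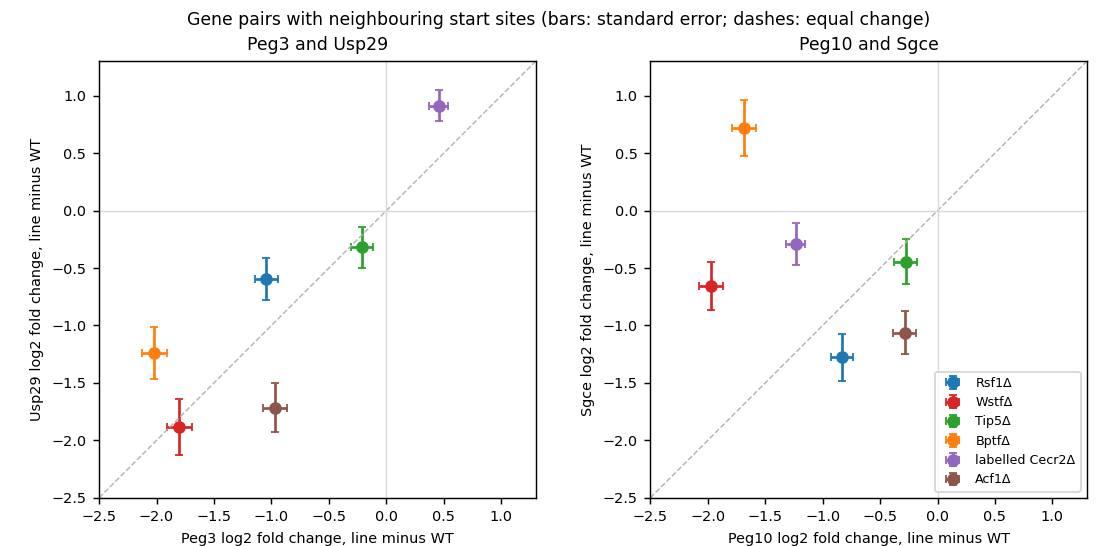
Log2 fold change against WT of Peg3 (x axis) and Usp29 (y axis) on the left, and of Peg10 and Sgce on the right, with a point per line, bars of 1 standard error and a dashed line of equal change. Usp29 has the same sign as Peg3 in all 6 lines, while Sgce in BptfΔ (0.72) lies opposite Peg10 (-1.68).

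The second pair, Peg10 and Sgce, moved less evenly. Peg10 was at 249 and 245 normalized CPM in WstfΔ and 886 and 1054 in WT, a log2 fold change of -1.97 ± 0.10 (SE, adjusted p = 1.56e-14 in edgeR). In BptfΔ it was at 96.6 and 92.4 against 276 and 331, a log2 fold change of -1.68 ± 0.11 (SE, adjusted p = 3.69e-13 in edgeR). The libraries labelled Cecr2Δ were at 262, 259.5 and 281 against 608, 663 and 618, a log2 fold change of -1.23 ± 0.082 (SE, adjusted p = 4.51e-12 in edgeR). The groups did not overlap in any of these 3 lines, and the WT libraries of batch C were themselves the lowest of the WT libraries. In Rsf1Δ Peg10 was at 537 and 553, a log2 fold change of -0.83 ± 0.10 (SE, adjusted p = 2.08e-07 in edgeR), a decrease short of 2-fold. Peg10 without the batch term did not pass in Rsf1Δ (-0.11, adjusted p = 0.887 in edgeR) or WstfΔ (-1.25, adjusted p = 0.0132). Tip5Δ, at 417 and 433 against 534 and 496, gave -0.28 (adjusted p = 0.0564 in edgeR) and did not pass, but did so with no filter on low counts (-0.26, adjusted p = 0.000812) and with its own WT libraries only (-0.28, adjusted p = 2.92e-06). The Acf1Δ libraries differed from each other, at 483 and 349 against 502 and 511 in WT, and the change of -0.28 (adjusted p = 0.0219 in edgeR) did not pass. Without Acf1Δ replicate 1 the change was -0.54, and over all alternatives tried it ran from -0.54 to -0.070. With no filter on low counts it passed (-0.26, adjusted p = 0.000216 in edgeR).

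Sgce was a DEG in Rsf1Δ and Acf1Δ, and no line had both genes of this pair as DEGs. In Rsf1Δ Sgce was at 4.04 and 2.36 normalized CPM against 7.90 and 7.54, a log2 fold change of -1.28 ± 0.20 (SE, adjusted p = 1.67e-05 in edgeR). Without Rsf1Δ replicate 2, the lower of the pair, the change was -0.93 and no longer past 2-fold. In Acf1Δ it was at 3.69 and 4.30 against 9.73 and 6.998, a log2 fold change of -1.06 ± 0.19 (SE, adjusted p = 5.63e-05 in edgeR). That call also rests on single libraries, with -0.96 without Acf1Δ replicate 1 and -0.80 without WT replicate 1. Neither line passed for Sgce without the batch term (-0.75 and -0.43, adjusted p = 0.38 and 0.578 in edgeR). BptfΔ was at 4.85 and 4.62 against 2.89 and 2.86, with a log2 fold change of 0.72 (adjusted p = 0.0151 in edgeR), just outside the threshold. Its libraries were above both WT libraries of batch C and inside the range of the other WT libraries, and without the batch term the change was -0.19. The change in BptfΔ did differ from the mean change of the other 5 lines, by 1.46 (adjusted p = 4.41e-05 in edgeR), as did that of Peg10 by -0.76 (adjusted p = 4.23e-06 in edgeR). WstfΔ gave -0.65 (adjusted p = 0.0124 in edgeR), Tip5Δ -0.44 (adjusted p = 0.134 in edgeR) and the libraries labelled Cecr2Δ -0.29 (adjusted p = 0.238 in edgeR).

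The level of 1 gene of a pair relative to the other showed the same unevenness. The log2 ratio of Peg10 to Sgce per kb was between 4.92 and 6.70 in the WT groups and 3.30 ± 0.0038 (SD, n = 2) in BptfΔ, against 5.70 ± 0.20 (SD, n = 2) in WT of batch C. In WstfΔ it was 4.64 ± 0.16 against 5.95 ± 0.23 (SD, n = 2 each). Against WT of its own batch it was also lower in the libraries labelled Cecr2Δ (5.75 against 6.70). It was higher in Acf1Δ (5.67 against 4.92), Rsf1Δ (6.45 against 5.95) and Tip5Δ (5.54 against 5.37). The log2 ratio of Peg3 to Usp29 lay within a narrower band, from 4.67 to 5.38 in the WT groups and from 4.47 to 5.47 in the lines. Within batches it was not steady. It was lower than in WT in BptfΔ (4.54 against 5.31), Rsf1Δ (4.93 against 5.38) and the libraries labelled Cecr2Δ (4.47 against 4.91). It was higher in Acf1Δ (5.40 against 4.67), Tip5Δ (4.97 against 4.86) and WstfΔ (5.47 against 5.38). The differences in these ratios were not tested.

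Snrpn and Ndn come from the same imprinted domain, which in humans is linked to Prader-Willi syndrome. Snrpn was at 92.6 and 92.1 normalized CPM in WstfΔ against 196 and 196 in WT, a log2 fold change of -1.08 ± 0.059 (SE, adjusted p = 3.37e-14 in edgeR). In BptfΔ it was at 83.7 and 86.3 against 169.8 and 166, a log2 fold change of -0.98 ± 0.059 (SE, adjusted p = 1.48e-13 in edgeR). All 4 of these libraries were below all 11 WT libraries, which held 154 to 203, and without BptfΔ replicate 2 the change in that line was just past 2-fold (-1.004). The libraries labelled Cecr2Δ were at 221, 214 and 229 against 203, 187 and 194, a log2 fold change of 0.19 ± 0.045 (SE, adjusted p = 0.00273 in edgeR). This small increase was lost without Cecr2Δ replicate 3 (adjusted p = 0.0248 in edgeR), without WT replicate 2 (0.0139) or WT replicate 3 (0.0117), with the replicate number as a block (0.0108), and with its own WT libraries only (0.0208). The log2 fold change was 0.051 in Rsf1Δ, 0.046 in Tip5Δ and -0.0016 in Acf1Δ, none of which passed. Snurf, the upstream reading frame of the same transcript, and Snhg14, the long noncoding RNA of the domain, lie on the Snrpn strand. Snurf fell by the same amount (-1.08 in WstfΔ and -0.98 in BptfΔ), which cannot be told apart from reads counted for both genes. Snhg14 fell in WstfΔ (-0.59, adjusted p = 4.3e-08 in edgeR) and BptfΔ (-0.72, adjusted p = 9.15e-10 in edgeR).

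Ndn did not pass the test in any of the 6 lines. Its libraries ranged from 4.90 to 10.5 normalized CPM in all, and from 7.17 to 9.60 in WT. The largest change was in Tip5Δ, at 4.90 and 5.82 against 7.17 and 7.86, a log2 fold change of -0.48 ± 0.14 (SE, adjusted p = 0.0149 in edgeR). In WstfΔ, where Snrpn fell, Ndn was at 10.5 and 10.5 against 8.98 and 9.60, a log2 fold change of 0.18 (adjusted p = 0.283 in edgeR). In BptfΔ it was at 7.06 and 7.34 against 8.03 and 7.59, with -0.12 (adjusted p = 0.513 in edgeR). Magel2, a neighbour of Ndn in the domain, was a decreased DEG in both, from 3.21 ± 0.64 to 1.38 ± 0.12 normalized CPM in WstfΔ and from 2.01 ± 0.46 to 0.12 ± 0.080 in BptfΔ (SD, n = 2 each), where its libraries held 1 and 3 counts. Of 2 further neighbours, Peg12 rose in WstfΔ (0.93, adjusted p = 0.00767 in edgeR) and gave 0.46 (adjusted p = 0.221) in BptfΔ, and Mkrn3 gave 0.20 (adjusted p = 0.259) in WstfΔ and fell in BptfΔ (-0.73, adjusted p = 0.000192).

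Plagl1 and Zrsr1 were the genes of the list that rose in BptfΔ. Plagl1 was at 11.4 and 12.8 normalized CPM in BptfΔ against 4.83 and 5.95 in WT, a log2 fold change of 1.17 ± 0.16 (SE, adjusted p = 6.23e-07 in edgeR). These WT libraries were the lowest for Plagl1 of all 24, and the BptfΔ level was within the 10.4 to 18.6 of the other WT libraries. Without the batch term the change was -0.025. Within the fit that has it, the change in BptfΔ differed from the mean change of the other 5 lines by 1.28 (adjusted p = 6.05e-07 in edgeR). Plagl1 fell in Acf1Δ, at 12.5 and 10.02 against 18.6 and 17.7, a log2 fold change of -0.70 ± 0.12 (SE, adjusted p = 5.35e-05 in edgeR), and in the libraries labelled Cecr2Δ, at 7.32, 8.20 and 8.70 against 11.7, 13.4 and 10.4, a log2 fold change of -0.54 ± 0.10 (SE, adjusted p = 0.000234 in edgeR). Both decreases were lost without the batch term (-0.13 and -0.60, adjusted p = 0.844 and 0.144 in edgeR). It did not pass in Rsf1Δ (0.38, adjusted p = 0.0196 in edgeR), Tip5Δ (0.32) or WstfΔ (-0.023).

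Zrsr1 was at 29.6 and 30.0 normalized CPM in BptfΔ against 17.8 and 18.3, a log2 fold change of 0.73 ± 0.10 (SE, adjusted p = 6.04e-07 in edgeR), and both libraries were above all 11 WT libraries. In Acf1Δ it was at 19.7 and 20.5 against 28.6 and 26.7, a log2 fold change of -0.46 ± 0.090 (SE, adjusted p = 0.000208 in edgeR). Set against its own WT libraries only, the change in Acf1Δ did not pass (adjusted p = 0.0175 in edgeR). The other 4 lines had log2 fold changes from 0.13 to 0.32 and did not pass. Commd1, whose intron holds Zrsr1 on the other strand, did not pass in any of the 6 lines (0.20 in BptfΔ, adjusted p = 0.0879 in edgeR, and 0.012 in Acf1Δ).

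Mest and Impact, both abundant, changed by less than 2-fold in every line. Mest was at 88.5 and 88.1 normalized CPM in BptfΔ against 127 and 129, a log2 fold change of -0.54 ± 0.067 (SE, adjusted p = 1.51e-07 in edgeR). In WstfΔ it was at 111 and 113 against 139 and 139, a log2 fold change of -0.31 ± 0.066 (SE, adjusted p = 0.000351 in edgeR), and in both lines each library was below all 11 WT libraries. It also fell in the libraries labelled Cecr2Δ, to 132, 139 and 132 from 149.8, 178 and 161, a log2 fold change of -0.28 ± 0.052 (SE, adjusted p = 0.00016 in edgeR). Mest rose in Tip5Δ, at 191 and 189 against 149 and 136, a log2 fold change of 0.41 ± 0.064 (SE, adjusted p = 2.96e-05 in edgeR), above all 11 WT libraries. In Acf1Δ it was at 168 and 171 against 132 and 126, a log2 fold change of 0.40 ± 0.064 (SE, adjusted p = 1.73e-05 in edgeR). Rsf1Δ gave 0.11 (adjusted p = 0.21 in edgeR). Of these changes of Mest, only the decrease in BptfΔ passed without the batch term. Copg2, which overlaps Mest on the other strand, rose with it in Tip5Δ (0.27, adjusted p = 0.00308 in edgeR) and did not pass in the other 5 lines, with log2 fold changes of 0.049 in BptfΔ and 0.17 in Acf1Δ.

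Impact fell in 4 lines. It was at 95.1 and 95.3 normalized CPM in WstfΔ and 109 and 109 in Rsf1Δ against 159 and 159 in their shared WT libraries, with log2 fold changes of -0.74 (adjusted p = 8.22e-12 in edgeR) and -0.55 (adjusted p = 2.81e-09 in edgeR). In BptfΔ it was at 128 and 128 against 209 and 214, a log2 fold change of -0.72 ± 0.052 (SE, adjusted p = 5.01e-12 in edgeR), and in Acf1Δ at 102 and 96.5 against 117 and 116, a log2 fold change of -0.24 ± 0.051 (SE, adjusted p = 0.000501 in edgeR). The call in Acf1Δ was lost in a fit with its own WT libraries only (-0.21, adjusted p = 0.181 in edgeR). Without the batch term all 4 calls were lost, with log2 fold changes of -0.61 in WstfΔ, -0.42 in Rsf1Δ, -0.19 in BptfΔ and -0.56 in Acf1Δ (adjusted p from 0.0947 to 0.542 in edgeR). That model does not take out the difference between WT batches, a log2 range of 1.13 for Impact. Libraries of line and WT did not overlap in any of the 4, yet in none of the 4 did both libraries lie below the 11 WT libraries, which held 95.2 to 214. Tip5Δ, at 203 and 201 against 172 and 166, showed an increase of 0.25 (adjusted p = 0.000622 in edgeR). That call was lost without Tip5Δ replicate 1 (adjusted p = 0.0128 in edgeR) or WT replicate 2 (adjusted p = 0.0214 in edgeR). In the libraries labelled Cecr2Δ Impact was at 94.9, 97.7 and 98.9 against 96.4, 95.2 and 98.8.

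Genes within 500 kb of a start of the 10 genes were read from the same fit, as a description. Over all genes tested, decreased and increased DEGs were 8.59% and 5.25% in BptfΔ, 3.32% and 1.14% in Acf1Δ and 6.57% and 3.87% in WstfΔ. They were 5.26% and 0.650% in Rsf1Δ, 2.63% and 0.0829% in Tip5Δ and 2.33% and 0.784% in the libraries labelled Cecr2Δ. Among the 14 tested genes near Peg3, which include Usp29, 7 were decreased DEGs in BptfΔ, 5 in Acf1Δ, 3 in WstfΔ, 1 in Rsf1Δ and 1 in Tip5Δ, and 2 were increased DEGs in the libraries labelled Cecr2Δ. The 2 that rose were Aurkc, a meiotic kinase gene, from 19 to 62 counts per library to 168 to 196 (log2 fold change 2.21), and Zim3, a zinc finger gene, from 23 to 27 counts to 64 to 91 (1.70). Both fell in Acf1Δ, Aurkc to 2 to 6 counts and Zim3 by 1.80 on the log2 scale, and both in BptfΔ, where each Aurkc library held 1 count and Zim3 changed by -1.36. Zim3 overlaps Usp29 on the other strand, so its reads and those of Usp29 cannot be told apart here. Zim1, downstream of Peg3, was a decreased DEG in BptfΔ (-2.09) and Rsf1Δ (-1.19), and the zinc finger genes Zfp772 (-3.22 in BptfΔ, -1.31 in WstfΔ, -1.23 in Acf1Δ) and Zfp773 (-2.37 in BptfΔ, -1.18 in Acf1Δ, -1.06 in Tip5Δ) were lower upstream. Epp13, on the other side, fell in WstfΔ (-2.19) and BptfΔ (-1.91). The 5 genes downstream of Zim1 up to Zfp667 included no DEG in any line. Gm7367, which overlaps Snrpn on the other strand, was an increased DEG in WstfΔ, where Snrpn fell (1.22, adjusted p = 0.00255 in edgeR, 134 and 135 counts against 51 and 152 in WT), and a decreased DEG in Acf1Δ (-1.87). Snord64, a small nucleolar RNA gene near Snrpn, was a decreased DEG in BptfΔ (-1.38). Col1a2 near Peg10 fell in Rsf1Δ, WstfΔ, Tip5Δ, BptfΔ and Acf1Δ and was at 0 counts in BptfΔ, while Casd1 and Ppp1r9a were DEGs in none of the 6 lines. Ttc39c near Impact rose in BptfΔ (1.81), Utrn near Plagl1 fell in Acf1Δ (-1.19), and 0 of the 7 genes near Zrsr1 were DEGs.

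**Figure D4:**
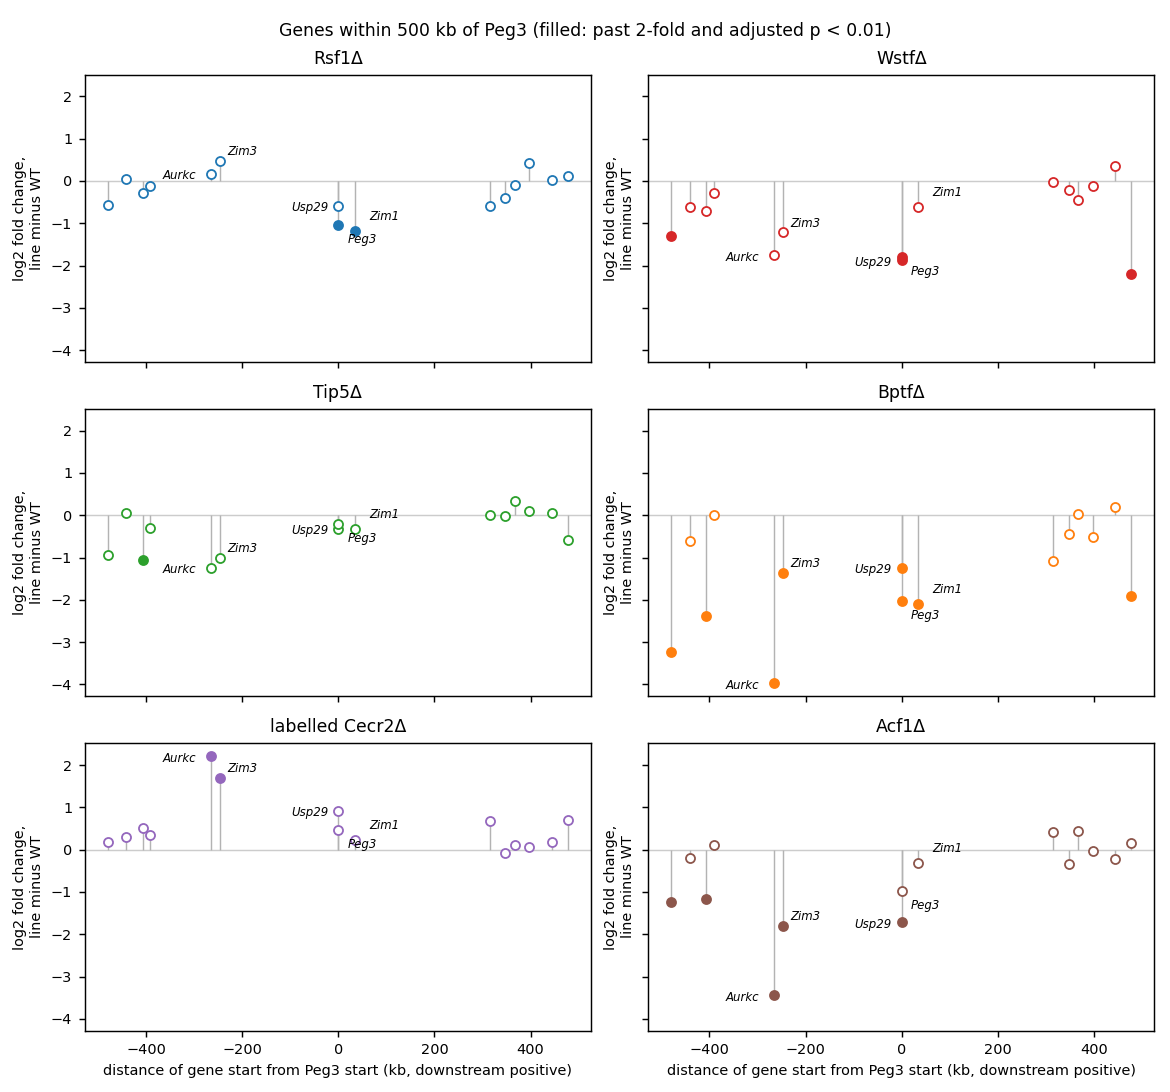
Log2 fold change against WT (y axis) of tested genes whose start lies within 500 kb of the Peg3 start (x axis, kb, downstream positive), a panel per line, filled where a gene is a DEG. In the libraries labelled Cecr2Δ the 2 filled points, Aurkc and Zim3, are above 0, and in BptfΔ and Acf1Δ the same genes are below 0.

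Factors that maintain imprints were measured in the same libraries, 14 of them. The counts of these and of the imprinted lists after them stand against shares of all genes that fell and rose of 18.3% and 16.4% in WstfΔ, 20.2% and 21.4% in BptfΔ, 13.1% and 7.45% in Rsf1Δ, 16.7% and 15.1% in Acf1Δ, 8.83% and 9.52% in the libraries labelled Cecr2Δ and 6.23% and 2.84% in Tip5Δ. In WstfΔ 5 fell and 3 rose, with the de novo methyltransferase genes Dnmt3b (-1.34) and Dnmt3l (-2.76) and Dppa3 (-3.14), which protects methylation in the zygote, as decreased DEGs. In BptfΔ 4 fell and 2 rose, and Dnmt3a (-2.63), Dnmt3b (-1.83), Dnmt3l (-2.41) and Dppa3 (-4.02) were decreased DEGs. Acf1Δ had 2 that fell and 5 that rose, with Dnmt3a a DEG at 1.15 and Dppa3 a DEG at -2.15. In the libraries labelled Cecr2Δ 3 fell and 1 rose, in Tip5Δ 2 fell and 0 rose, and in Rsf1Δ 2 fell and 4 rose. The DEGs there were Dnmt3l (-1.21) in the libraries labelled Cecr2Δ and Dppa3 (-1.13) in Tip5Δ. Zfp57 rose in Rsf1Δ (0.62), BptfΔ (0.40) and Acf1Δ (0.48). The median of the 14 factors lay between -0.10 in WstfΔ and 0.12 in Rsf1Δ.

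Imprinted genes outside the 7 regions were counted for comparison. Of 14 other paternally expressed genes 11 were tested, and 7 of them fell and 1 rose in WstfΔ, 5 and 0 in BptfΔ, 3 and 3 in Rsf1Δ, 3 and 3 in Acf1Δ, 2 and 3 in Tip5Δ, and 2 and 3 in the libraries labelled Cecr2Δ. Sfmbt2, a polycomb group gene, was a decreased DEG in Rsf1Δ (-1.48), WstfΔ (-2.44), Tip5Δ (-1.35), BptfΔ (-5.03) and the libraries labelled Cecr2Δ (-1.61). Igf2, a fetal growth factor gene, was one in Rsf1Δ (-2.56), WstfΔ (-2.74), BptfΔ (-2.09), Acf1Δ (-1.45) and the libraries labelled Cecr2Δ (-1.48). Further DEGs were Nnat (-4.17) and Rtl1 (-1.35) in WstfΔ, Dlk1 (-1.47) in BptfΔ, and Peg13 (1.26) and Rtl1 (1.25), both higher, in Acf1Δ. Of 14 maternally expressed genes 12 were tested, and 6 fell and 4 rose in WstfΔ, 5 and 3 in BptfΔ, 4 and 3 in Rsf1Δ, 3 and 4 in Acf1Δ, 2 and 2 in the libraries labelled Cecr2Δ and 0 and 4 in Tip5Δ. In WstfΔ the decreased DEGs among them were H19 (-4.39), Meg3 (-1.11), Mirg (-1.14) and Ascl2 (-1.57). H19 was also a decreased DEG in Rsf1Δ (-2.22), Acf1Δ (-8.24) and BptfΔ, where its libraries held at most 1 count. The other DEGs of this list were Cdkn1c (-1.44), Ascl2 (-1.67) and Kcnq1 (1.79) in BptfΔ, Cdkn1c (1.31) in Acf1Δ and Grb10 (1.07) in Tip5Δ. The list of 24 domain neighbours had 19 tested genes, with 4 that fell and 1 that rose in WstfΔ, 6 and 2 in BptfΔ, 2 and 0 in Rsf1Δ, 4 and 0 in Acf1Δ, 1 and 3 in the libraries labelled Cecr2Δ and 0 and 1 in Tip5Δ. Atp10a, a phospholipid flippase gene at the edge of the Snrpn domain, was a decreased DEG in BptfΔ (-2.66), WstfΔ (-1.71), Acf1Δ (-1.21) and Rsf1Δ (-1.11). Medians over the tested genes of the paternally expressed list were lowest in WstfΔ (-0.54) and BptfΔ (-0.36) and highest in Tip5Δ (0.23), those of the maternally expressed list ran from -0.23 in BptfΔ to 0.26 in Tip5Δ, and those of the neighbours from -0.26 in WstfΔ to 0.13 in the libraries labelled Cecr2Δ.

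Markers of other cell types moved in the same libraries. Shares of all genes that fell and rose in each line are those given above for the imprint factors. Decreased DEGs were 5.26% of all genes in Rsf1Δ, 6.57% in WstfΔ, 2.63% in Tip5Δ, 8.59% in BptfΔ and 3.32% in Acf1Δ. In the libraries labelled Cecr2Δ they were 2.33%. In bulk RNA fewer cells of a type and less RNA per cell cannot be told apart. All 7 primitive endoderm markers (Gata4, Gata6, Sox17, Sox7, Pdgfra, Dab2 and Foxa2) fell in Rsf1Δ, WstfΔ, Tip5Δ, BptfΔ and the libraries labelled Cecr2Δ, and none was at 0. Their summed level was 330 to 338 normalized CPM in WT of batch A, 139 to 147 in Rsf1Δ and 133 to 139 in WstfΔ, 145 to 153 in WT of batch C and 13.9 to 14.4 in BptfΔ, and 101 to 117 in WT of batch D and 29.5 to 34.1 in the libraries labelled Cecr2Δ. In Tip5Δ it was 73.1 to 80.2 against 333 to 353, with all 7 markers decreased DEGs. None of the 10 imprinted genes passed as lower in Tip5Δ in the fit over all libraries, while 3 did (Peg3, Peg10 and Ndn) against its own WT libraries only. In Acf1Δ the summed level of the 7 markers was 269 to 306 against 242 to 249, with 3 markers that rose and 1 that fell. Of the 10 imprinted genes 6 fell there, of which Impact and Zrsr1 did not pass against its own WT libraries only. Trophoblast markers summed to 44.1 to 44.2 in Rsf1Δ and 39.7 to 42.0 in WstfΔ against 64.9 to 66.3, to 19.7 to 22.9 in BptfΔ against 47.0 to 47.7, to 20.2 to 21.8 in Acf1Δ against 55.2 to 58.4 and to 48.1 to 50.3 in Tip5Δ against 58.6 to 60.9. Their sum was higher, at 54.1 to 58.3 against 37.3 to 46.4, in the libraries labelled Cecr2Δ, and Elf5 was at 0 in WstfΔ and Gcm1 at 0 in BptfΔ. A sum follows its most abundant genes. Of the 5 tested trophoblast markers 1 rose and 1 fell, as a DEG, in the libraries labelled Cecr2Δ, with a median log2 fold change of -1.03. In Tip5Δ 0 rose and 0 fell (median -0.27). In the other lines 2 fell in Rsf1Δ, 3 in WstfΔ, where 1 rose, 3 in BptfΔ and 1 in Acf1Δ. Of the 6 fibroblast markers 4 were tested, and 3 were decreased DEGs in each of the lines but the one labelled Cecr2Δ, which had 0. Their sum was 9.19 to 10.2 in Rsf1Δ and 17.3 to 19.8 in WstfΔ, where 1 marker rose, against 18.3 to 18.99, and 17.5 to 22.2 in Tip5Δ against 31.6 to 31.7. In BptfΔ it was 2.54 to 3.11 against 7.88 to 8.61, with Col1a2, Dcn and Lum at 0, of which Lum was also at 0 in WT of that batch. In Acf1Δ it was 12.8 to 12.99 against 24.2 to 24.4, and in the libraries labelled Cecr2Δ 15.8 against 16.4 to 18.3. Neuroectoderm markers summed to 101 in Rsf1Δ and 74.7 to 78.4 in WstfΔ against 137 to 144, and to 71.6 to 72.7 in Acf1Δ against 98.6 to 103. Their sum was higher in Tip5Δ (121 to 126 against 94.1 to 99.3) and in the libraries labelled Cecr2Δ (108 to 122 against 84.8 to 96.9), and overlapped WT in BptfΔ (101 to 107 against 104 to 113). Of the 5 tested neuroectoderm markers, 2 rose and 1 fell in Tip5Δ (median log2 fold change 0.22). In the libraries labelled Cecr2Δ 1 rose and 0 fell (median -0.086). Those that rose and fell were 2 and 1 in Rsf1Δ, 1 and 2 in WstfΔ, 1 and 2 in BptfΔ and 0 and 2 in Acf1Δ. Mesoderm markers summed to 15.4 to 17.2 in BptfΔ against 6.46 to 7.06. Of the 6 tested there, Kdr rose (2.67), T fell (-4.44) and the median log2 fold change was -0.50, and 4 of the 7 listed held at most 3 counts. The mesoderm sum of the other lines and WT groups was 6.46 to 10.3. The pluripotency markers moved too. In WstfΔ 6 of 6 rose (median log2 fold change 0.63), as did 6 of 6 in Rsf1Δ (0.34) and 5 of 6 in BptfΔ (0.65, with Klf4 and Esrrb as DEGs). In the libraries labelled Cecr2Δ 4 rose, in Acf1Δ 2 rose and 2 fell, and in Tip5Δ 0 rose and 0 fell. Their sum was 3763 to 3809 in WstfΔ and 3464 to 3468 in Rsf1Δ against 2527 to 2618, and 3898 in BptfΔ against 2611 to 2677. The part of any of these cell types in the changes of the 10 genes was not tested beyond these values.

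The genes most alike to each of the 10 were found by Pearson correlation over the 24 libraries, with log2 normalized CPM taken relative to the WT mean of the batch, and are given without a test because libraries share lines, batches and WT means. Peg3 was most like Gbp2 (r = 0.98) and Kctd3 (0.98), Usp29 like Ifitm3 (0.97) and Alg13 (0.96), and Peg10 like Ankrd1 (0.97) and Wnt4 (0.97). Sgce was closest to Pdcd6ip (0.93) and Cald1 (0.92), Mest to Dse (0.95) and Slc35f2 (0.93), and Impact to Pphln1 (0.98) and Clca4a (0.97). Snrpn followed Snurf, which lies on the same transcript, and Platr10 (0.98), Plagl1 followed Cdh3 (0.91) and Ska2 (0.90), and Zrsr1 followed Ttl (0.93) and Fam50a (0.92). Ndn had the weakest best matches, Snrnp25 (0.83) and Vim (0.82). Among the 45 pairs of the 10 genes the median r was -0.042, with 13 pairs above 0.5 and 5 below -0.5. The highest were Peg3 with Impact (0.91), Peg3 with Usp29 (0.89) and Peg3 with Snrpn (0.84), and the lowest was Mest with Zrsr1 (-0.60). The order depends on the points used. Over the log2 fold changes of the 6 lines the highest pair was Mest with Peg10 (0.94, against 0.67 over the libraries), followed by Peg3 with Impact (0.88), and the lowest was Ndn with Impact (-0.76, against -0.46). The closest gene was then another one for 8 of the 10, all but Usp29 and Snrpn, and the r of Ankrd1 with Peg10 was 0.83.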

How the data were processed

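RNA-seq libraries were made with TruSeq kits, a stranded mRNA kit per the labels and the RNA v2 kit per the study's methods. Reads were aligned by the authors to mm10 with QuasR (HISAT2, spliced), and raw counts, not normalized, were deposited for 24594 genes of UCSC knownGene. The same table gives each gene a width (another unit, bases) that the authors made from the annotation, used here for levels per kb. The number of sample columns not used was 0.

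Gene IDs were joined to RefSeq (24570 of 24594 matched, and 117 of 118 listed symbols). With R 4.3.3 and edgeR 4.0.16, genes were filtered with filterByExpr by genotype, scaled with TMM, and fitted by the quasi-likelihood model (legacy form) with batch and genotype over all 24 libraries. The filter function, the model terms and the DEG thresholds follow the study's methods, while grouping by genotype and TMM were chosen here. The study reported fewer DEGs in each line than were found here, and the reason was not tested. Lines were set against WT of the same batch, with Benjamini-Hochberg adjustment over the genes tested. The standard error (SE) of a log2 fold change was its size over the root of F. The common biological coefficient of variation was 0.057. At most 3 counts in a library were taken as the floor for a fold change. Correlations used log2 normalized CPM with 0.1 added. The steps were tested on simulated data.

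The 10 genes, the lists and the tests were chosen with earlier results of these data known. Named genes are the 10, the 6 targeted genes, for each of the 4 lists of imprinted genes, neighbours and imprint factors the DEGs with at most 4 per line, genes within 500 kb that are DEGs where the gene of the list is one, and the 2 genes most alike. Aurkc and Zim3 in the libraries labelled Cecr2Δ, Ttc39c, Utrn, Peg12, Mkrn3, Snord64, Kdr, Zfp57, Snurf, Snhg14, Copg2, Commd1, Casd1, Ppp1r9a and some other neighbours were named after their values were seen.

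Replicate numbers come from the labels. Libraries of the same number deviated from their group means with correlations between -0.074 and 0.046 over 15 pairs, so the numbers were not taken to pair libraries. No 2 libraries of a group held identical values. Alternatives tried were RLE scaling, library size only, no filter, the newer quasi-likelihood form, DESeq2 1.42.0, each line with its own WT libraries only, no batch term, a replicate block, glmTreat against 2-fold, no fold minimum, leaving out each library, windows of 250 and 1000 kb, likeness over the 6 lines, and at least 2 motif matches. Leaving out batch C was chosen after seeing the data. Accessibility, binding and methylation data were not used here.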

Additional observations from a re-analysis of the deposited data

Results flagged for a closer look

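For 9 combinations of gene and line, the change in 1 line differed from the mean change of the other 5 lines past 2-fold, with an adjusted p under 0.01 in the quasi-likelihood test of edgeR (Benjamini-Hochberg). In WstfΔ the difference on the log2 scale was -1.04 for Peg3, -1.29 for Usp29 and -1.11 for Peg10, and both WstfΔ libraries were below all 11 WT libraries for each. In BptfΔ it was -1.30 for Peg3, 1.46 for Sgce and 1.28 for Plagl1, where the Sgce change against WT did not itself pass the test (0.72, adjusted p = 0.0151 in edgeR). In the libraries labelled Cecr2Δ it was 1.66 for Peg3 and 2.06 for Usp29, both of which were higher in 3 of 3 libraries than in every WT library of the batch. In Acf1Δ it was -1.09 for Usp29, and without WT replicate 2 of batch E no gene of the 10 differed in this way.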

How the results depend on the processing

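Over the 60 changes of 10 genes in 6 lines, DESeq2, RLE scaling and library size only kept 59, 59 and 58 on the same side of the threshold and in the same direction, the newer quasi-likelihood form all 60, no filter 53, each line with its own WT libraries 49 and no batch term 32. With each line's own WT libraries 3 calls were lost, of Impact and Zrsr1 in Acf1Δ and Snrpn in the libraries labelled Cecr2Δ, and 7 were gained, of Sgce in BptfΔ and WstfΔ (adjusted p = 0.00179 and 0.00171 in edgeR), Plagl1 in Rsf1Δ, and Peg3, Peg10, Ndn (lower) and Zrsr1 (higher) in Tip5Δ, which then had 3 genes that fell where the fit over all libraries had 0. The replicate block kept 59, with 2, 4, 0, 4, 1 and 2 DEGs in Rsf1Δ, WstfΔ, Tip5Δ, BptfΔ, the libraries with the Cecr2Δ label and Acf1Δ, 5 genes that differ between WT batches, and 0, 3, 0, 3, 2 and 1 that differ from the other lines. The 1 call it changed was Snrpn in the libraries labelled Cecr2Δ (adjusted p = 0.0108 in edgeR). Tested against a 2-fold change (glmTreat), DEGs numbered 0 in Rsf1Δ, Acf1Δ and the line labelled Cecr2Δ, against 2 in BptfΔ. With no fold minimum they numbered 4 in Rsf1Δ, 2 in Tip5Δ, 8 in BptfΔ, 7 in Acf1Δ and 6 in the libraries labelled Cecr2Δ. Without the batch term they numbered 0 in Rsf1Δ and 2 in WstfΔ, and without batch C 2 genes differed between WT batches. Leaving out 1 library gave 1 to 2 DEGs in Rsf1Δ and 4 to 5 in BptfΔ, and 0 to 1, 2 to 3 and 0 to 2 genes that differ from the other lines in Rsf1Δ, WstfΔ and Acf1Δ.

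Reversals were mostly of changes near 0. Impact in the libraries labelled Cecr2Δ was -0.0050 with DESeq2, -0.0057 with RLE scaling, -0.0017 with library size only, -0.59 without the batch term and -0.0078 to 0.023 without 1 library. Snrpn in Acf1Δ was 0.020 with no filter, 0.028 with its own WT libraries and -0.049 to 0.045 without 1 library. Ndn was -0.088 to 0.28 in Acf1Δ and -0.026 to 0.071 in Rsf1Δ, and Plagl1 -0.087 to 0.042 in WstfΔ, without 1 library. Without the batch term Peg3 in the libraries labelled Cecr2Δ was -0.13, Plagl1 in BptfΔ -0.025 and in WstfΔ 0.16, Sgce in BptfΔ -0.19, Snrpn in Tip5Δ -0.15, and Zrsr1 0.012 in Acf1Δ, -0.064 in the libraries labelled Cecr2Δ, -0.0022 in Rsf1Δ and -0.023 in WstfΔ. The same model lost 17 further calls, of Impact in 5 lines, Mest in 4, Peg10, Plagl1 and Sgce in 2 each and Peg3 and Usp29 in 1 each. That model sets each line against WT libraries of all batches. The cause of the other changes was not tested. Ndn in Tip5Δ passed with library size only (adjusted p = 0.00811 in edgeR), its own WT libraries (0.00715) and no batch term (0.00834). A window of 250 kb held 8 DEGs near Peg3 over the 6 lines, 0 near Snrpn and 0 near Impact, and one of 1000 kb 5 near Mest, 4 near Plagl1 and 4 near Impact. At least 2 TGCCGC matches were in 1.53% of all windows and at least 2 AANATGGC matches in 0.326%. Each line is 1 clone with 2 or 3 libraries, and Usp29 and Sgce rest on 13 to 264 counts per library.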
